A study of Mus musculus with 8 samples.

Results

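The expression of 10 genes that macrophages use to take up, carry, store and release lipid was followed through the cell types of a mouse lung tumor: Apoe, Lpl, Abca1, Abcg1, Trem2, Gpnmb, Fabp4, Fabp5, Plin2 and Pltp. They were chosen by gene symbol, with earlier results of these data known, so counts among them are a description. All 10 were found among the 23952 gene symbols of the deposited table, and all 10 were among the 13311 genes that passed the filter on low values (at least 1 RPKM in at least 2 libraries). RPKM is a read count scaled to the length of the transcript and the size of the library. Where a symbol had several transcripts (Trem2 had 2 and Fabp5 had 3), the transcript with the highest mean was used.

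The tumors were Lewis lung carcinomas, grown under the skin of both flanks of mice from a cultured line of that carcinoma that had been transfected with the red fluorescent protein dTomato and sorted for it. All host mice were transgenic Col1a1-GFP animals, in which green fluorescent protein follows the promoter of a collagen gene. Alexa 647-labelled collagen was injected into the tumors 24 h before cells were sorted. There were 4 groups of 2 libraries each: whole tumors (Total tumor), dTomato-positive carcinoma cells (LLC), GFP-positive cells (Fibroblast), and macrophages called M2 tumor-associated macrophages in the labels (TAM), which were F4/80-positive, collagen-positive and negative for dTomato and GFP. The gates limit what each group stands for: Fibroblast holds any cell with an active Col1a1 promoter, and TAM holds only macrophages that had taken up collagen. Age, sex and strain background were not stated in the sources used here. The labels also leave it unsaid whether both libraries of a population were from different mice, so p-values measure the spread between these libraries, which may be technical.

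Macrophages that engulf dying cells and lipoproteins take in large amounts of cholesterol and fatty acids. Oxysterols and fatty acids activate the nuclear receptors LXR and PPAR, which raise transporters and carriers such as Abca1, Abcg1, Apoe and Fabp4. The surface receptor Trem2 binds lipids and apolipoproteins, and in adipose tissue, atheroma and brain it marks a state often called lipid-associated, in which Gpnmb, Fabp5 and Lpl are also high.

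The labels were checked against marker genes. The summed RPKM of 12 macrophage markers was 15921 to 20423 in TAM, 1566 to 4201 in Total tumor, 219 to 284 in Fibroblast and 88.5 to 519 in LLC. The sum of 10 fibroblast markers was 23994 to 25564 in Fibroblast, 3735 to 5004 in LLC, 2197 to 2813 in Total tumor and 136 to 683 in TAM. In LLC the markers had medians of 2.51% and 4.79% of their Fibroblast mean, and single markers reached 67.6%. Depth, estimated from the spacing of the lowest RPKM values, ran from 8.55 to 10.4 M reads in replicate 1 of each group and from 4.29 to 4.73 M reads in replicate 2. Total tumor 2 stood apart, since its values fell with transcript length against the mean of all libraries (Spearman's rho -0.44 over 13098 genes, against -0.2 to 0.25 in the other 7 libraries).

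In TAM, 9 of the 10 genes had their highest mean of the 4 groups, and Fabp4 was the exception, with its highest mean in Fibroblast. The share of all genes with their highest mean in TAM was not counted. By limma's test, with Benjamini-Hochberg adjustment over all genes tested and a threshold of 0.05, all 10 were higher in TAM than in LLC, where 15.4% of all genes were called higher. Their log2 differences ran from 2.01 to 6.36, with a median of 4.07 beside a median of -0.38 over all genes. Against Fibroblast 7 were higher in TAM, 0 lower and 3 did not pass (17.4% of all genes were called higher), and the median was 3.14 beside 0.13 over all genes. Between Fibroblast and LLC the genes split: 3 were higher in Fibroblast (13% of all genes), 1 was lower (25.7% of all genes) and 6 did not pass. The 6 comparisons share libraries and are not independent of each other. Log2 differences are on the log2(RPKM + 1) scale, which understates the change of genes at low levels, and values after ± are SDs of 2 libraries.

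**Figure D1:**
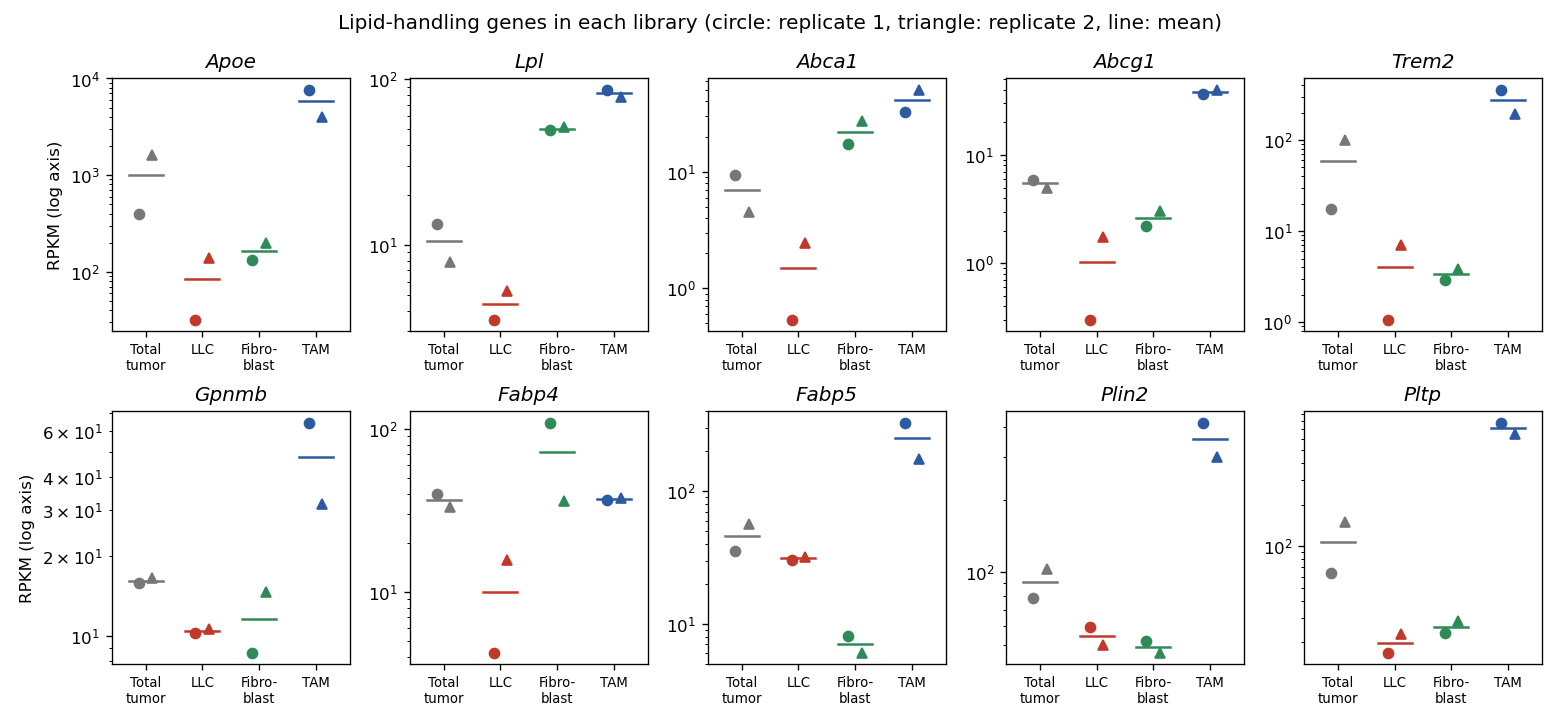
RPKM of each of the 10 genes (log axis, scaled for each gene) in the 8 libraries, by group, with circles for replicate 1, triangles for replicate 2 and lines for group means. TAM libraries are above all LLC and Fibroblast libraries for 9 genes, and the share of all genes that do the same was not counted. Fabp4 reaches its highest value, 109 RPKM, in Fibroblast 1.

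**Figure D2:**
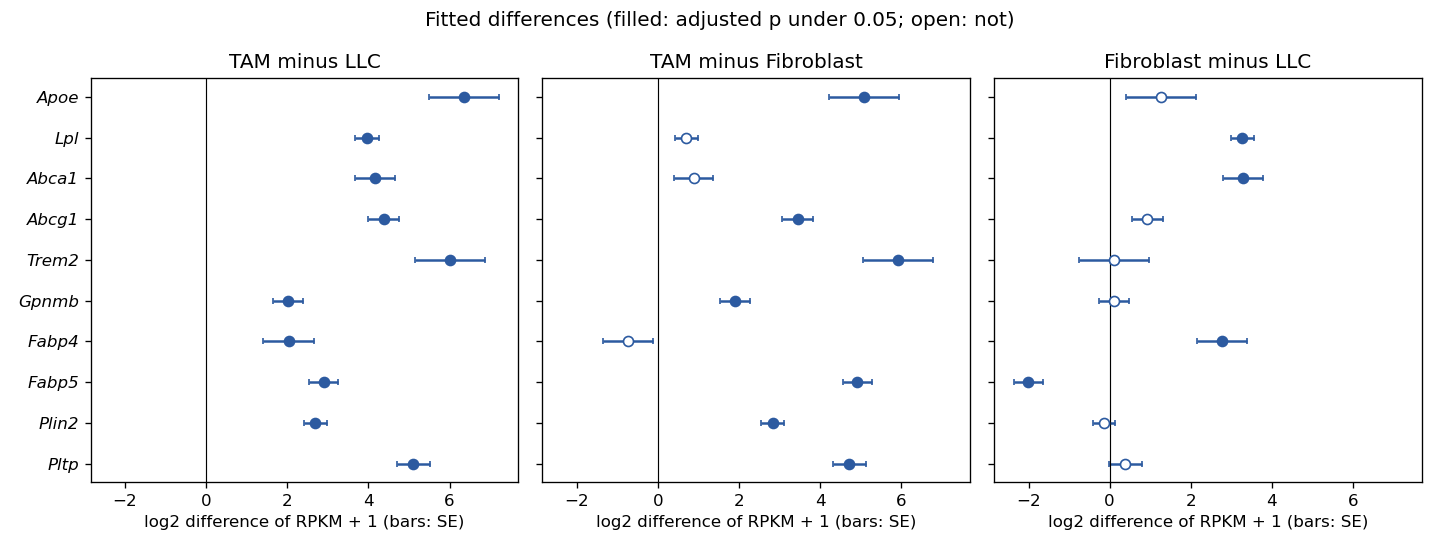
Fitted log2 differences of RPKM + 1 for the 10 genes in the 3 comparisons of sorted populations, with bars for the SE and filled points for an adjusted p under 0.05. All 10 lie to the right of 0 for TAM minus LLC, while Lpl, Abca1 and Fabp4 are the genes with open points for TAM minus Fibroblast and filled points to the right of 0 for Fibroblast minus LLC.

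The promoter sequences of 3 members are shown because their genes stand for the patterns of the data: Trem2 and Pltp were higher in TAM than in both other sorted populations, and Abca1 was higher than in LLC in both TAM and Fibroblast. Each run is the 250 bases before the RefSeq start of the gene in build GRCm38.p6, 5′ to 3′ on the gene's strand. The expression values were made on the older build mm9, so no read position is implied. Capitals mark matches to 4 motifs, searched on both strands. The TATA box was searched as TATAAA. The E-box was searched as CACGTG. The M-box core, an E-box form bound by Mitf and its relatives, was searched as CATGTG. The AP-1 site was searched as TGANTCA, where N is any base, so a match need not be the usual site.
Trem2 (chr17:48346151-48346400, plus strand): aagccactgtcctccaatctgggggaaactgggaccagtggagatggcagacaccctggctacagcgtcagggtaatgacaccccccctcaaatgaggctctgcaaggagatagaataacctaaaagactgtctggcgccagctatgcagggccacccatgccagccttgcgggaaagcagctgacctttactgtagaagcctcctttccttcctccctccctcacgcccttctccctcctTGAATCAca
Pltp (chr2:164857709-164857958, minus strand): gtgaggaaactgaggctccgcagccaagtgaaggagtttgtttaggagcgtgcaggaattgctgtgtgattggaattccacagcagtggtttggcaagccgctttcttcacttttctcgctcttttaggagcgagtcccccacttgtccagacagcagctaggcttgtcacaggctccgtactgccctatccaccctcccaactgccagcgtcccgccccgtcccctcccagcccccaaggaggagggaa
Abca1 (chr4:53159896-53160145, minus strand): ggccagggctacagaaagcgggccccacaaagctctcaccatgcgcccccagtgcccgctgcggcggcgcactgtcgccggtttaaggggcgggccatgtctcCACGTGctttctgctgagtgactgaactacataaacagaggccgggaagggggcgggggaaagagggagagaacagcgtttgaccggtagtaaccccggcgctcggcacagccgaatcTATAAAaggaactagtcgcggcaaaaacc

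In this window Abca1 had a TATA box that begins 29 bases before the start and an E-box that begins 147 bases before it. Trem2 had a match to the loose AP-1 pattern, TGAATCA with A at N, that begins 9 bases before its start. Pltp had a match to none of the 4 motifs. Among all 32851 RefSeq promoter windows of this length, 12.4% held the TATA box, 6.02% the E-box, 12.3% the M-box core and 6.75% the loose AP-1 pattern. The table held such windows for 6 of the 10 genes. AGGTCA, the core of nuclear receptor elements and not capitalised here, was found once in the Trem2 window and once in that of Plin2 (14% of all windows held it). Elements that differ from these exact letters were not searched. A window without AGGTCA, such as that of Abca1, may therefore still hold a nuclear receptor element. These matches describe the letters of the windows and no binding was measured.

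Trem2, the lipid-sensing receptor, was 67.4-fold higher in mean RPKM in TAM than in LLC and 80.6-fold higher than in Fibroblast. Trem2 (NM_031254) stood at 355 and 194 RPKM in the TAM libraries, at 1.06 and 7.08 in LLC, at 2.92 and 3.88 in Fibroblast, and at 17.6 and 98.9 in Total tumor. No LLC or Fibroblast library came within reach of TAM. Trem2 differed from LLC by a log2 of 6.01 (SE 0.86, adjusted p = 0.00115) and from Fibroblast by 5.91 (SE 0.86, adjusted p = 0.00115). LLC and Fibroblast overlapped (log2 0.10 for Fibroblast minus LLC, adjusted p = 0.94). The other Trem2 transcript, NM_001272078, read almost the same, at 338 and 186 RPKM in TAM. At the estimated depths, the lowest Trem2 value, in LLC 1, corresponds to about 12 reads.

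Apoe, the apolipoprotein that carries cholesterol out of macrophages and is a ligand of lipoprotein receptors, was the most abundant of the 10 per length of transcript. Apoe (NM_009696) reached 7612 and 3971 RPKM in TAM, against 31.7 and 137 in LLC, 131 and 198 in Fibroblast and 391 and 1620 in Total tumor. The means, 5792 ± 2575 in TAM, 84.2 ± 74.3 in LLC and 165 ± 47.6 in Fibroblast, put TAM 68.8-fold above LLC and 35.2-fold above Fibroblast. Both log2 differences passed, at 6.36 from LLC (SE 0.86, adjusted p = 0.000906) and 5.08 from Fibroblast (SE 0.86, adjusted p = 0.00256). Fibroblast and LLC overlapped for Apoe (log2 1.27, adjusted p = 0.274).

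Pltp, the phospholipid transfer protein that moves phospholipid between lipoproteins, followed the same order with less spread. Pltp (NM_011125) stood at 781 and 648 RPKM in TAM, 16.8 and 22.9 in LLC, 23.6 and 28.7 in Fibroblast and 63.7 and 149 in Total tumor. TAM was higher by a log2 of 5.11 than LLC (SE 0.40, adjusted p = 0.000137) and by 4.72 than Fibroblast (SE 0.40, adjusted p = 0.000144). Fibroblast and LLC did not overlap for Pltp, yet their difference did not pass (log2 0.39, adjusted p = 0.473), and it passed after quantile normalization (log2 0.86, adjusted p = 0.0466).

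The 2 cholesterol efflux pumps of the ABC transporter family differed in Fibroblast. Abcg1, which loads cholesterol onto HDL particles, was at 36.8 and 40 RPKM in TAM, 0.298 and 1.76 in LLC, 2.2 and 3.05 in Fibroblast and 5.93 and 4.99 in Total tumor. Abcg1 (NM_009593) was higher in TAM than in both other sorted populations, by a log2 of 4.38 over LLC (SE 0.38, adjusted p = 0.000177) and 3.45 over Fibroblast (SE 0.38, adjusted p = 0.000318). Abca1, which hands cholesterol and phospholipid to lipid-poor apolipoproteins, was at 32.3 and 50.2 RPKM in TAM, 17.1 and 27 in Fibroblast, 0.536 and 2.46 in LLC and 9.43 and 4.53 in Total tumor. Abca1 (NM_013454) was higher in TAM than in LLC (log2 4.16, SE 0.49, adjusted p = 0.000487) and higher in Fibroblast than in LLC (log2 3.29, SE 0.49, adjusted p = 0.00215). The TAM and Fibroblast libraries did not overlap for Abca1, but the difference did not pass (log2 0.88, SE 0.49, adjusted p = 0.222). It passed after correction for transcript length (log2 1.08, adjusted p = 0.0349), and its adjusted p reached 0.614 at most among the alternatives tried. Between Fibroblast and LLC the Abcg1 difference did not pass (log2 0.93, adjusted p = 0.0916). It passed without LLC replicate 2 (log2 1.47, adjusted p = 0.0303) and after the length correction (log2 1.42, adjusted p = 0.0172), in a range up to 0.468.

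Lpl, the lipase that frees fatty acids from the triglyceride of lipoproteins, shared the pattern of Abca1. Lpl (NM_008509) read 86.2 and 78.5 RPKM in TAM, 49.1 and 51.2 in Fibroblast, 3.52 and 5.24 in LLC and 13.3 and 7.85 in Total tumor. The replicates were close, and LLC lay far below both stromal populations. Lpl was higher than in LLC by a log2 of 3.97 in TAM (SE 0.29, adjusted p = 0.000131) and of 3.27 in Fibroblast (SE 0.29, adjusted p = 0.00037). TAM minus Fibroblast was 0.70 (SE 0.29, adjusted p = 0.106). That difference passed with only the compared groups in the fit (adjusted p = 0.0167), without Total tumor replicate 1 (0.0292) and without Total tumor replicate 2 (0.0283), with a highest value of 0.41 over its alternatives. Over the 8 libraries the log2 values of Lpl and Abca1 had a Pearson's r of 0.97, against 0.47 for Lpl and Trem2 and 0.54 for Abca1 and Trem2. These 8 points come from 4 cell populations and share their library and depth, so r is a description.

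The fatty acid-binding proteins Fabp4 and Fabp5, small carriers that shuttle fatty acids inside the cell, lay in opposite directions between Fibroblast and LLC. Fabp5 (NM_001272097) stood at 328 and 174 RPKM in TAM, 30.3 and 32 in LLC, 8.03 and 6.02 in Fibroblast and 35.6 and 56.9 in Total tumor. TAM was highest and Fibroblast lowest, while LLC minus Total tumor did not pass (log2 -0.52, SE 0.36, adjusted p = 0.685). Fabp5 was higher in TAM by a log2 of 2.90 than in LLC (SE 0.36, adjusted p = 0.000607) and by 4.92 than in Fibroblast (SE 0.36, adjusted p = 0.000116). It was the 1 gene of the 10 that was lower in Fibroblast than in LLC (log2 -2.01, SE 0.36, adjusted p = 0.00455). The mouse genome holds near-identical copies of Fabp5, and how reads that fit several places were counted is not given in the sources used here, so its level is uncertain.

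Fabp4, the carrier of adipocytes, macrophages and capillary endothelium, was the gene with the least gain in TAM. Fabp4 (NM_024406) stood at 36.5 and 37.9 RPKM in TAM, 109 and 36.1 in Fibroblast, 4.23 and 15.7 in LLC and 40.2 and 33.3 in Total tumor. The TAM libraries lay between the Fibroblast libraries, and those overlapped with every group but LLC. Fabp4 was higher than in LLC by a log2 of 2.03 in TAM (SE 0.62, adjusted p = 0.0327) and of 2.77 in Fibroblast (SE 0.62, adjusted p = 0.0113). TAM minus Fibroblast was -0.74 (SE 0.62, adjusted p = 0.414) and became 0.04 without Fibroblast replicate 1 (adjusted p = 0.985). The call against LLC ended without LLC replicate 1 (log2 1.19, adjusted p = 0.198), TAM replicate 1 (0.118) or TAM replicate 2 (0.12), without the filter on low values (0.0597), and with only the groups compared (0.0513). The lowest adjusted p among its alternatives was 0.0156. The call of Fibroblast over LLC ended without LLC replicate 1 (adjusted p = 0.0746) or Fibroblast replicate 1 (0.0855), and the lowest among its alternatives was 0.00678.

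Beside the gap between the Fibroblast libraries for Fabp4, several endothelial markers were also higher in Fibroblast 1. Cdh5 was at 6.82 and 3.87 RPKM in Fibroblast 1 and 2, Tie1 at 3.14 and 0.764, Esam at 12.6 and 4.9 and Gpihbp1, which anchors lipoprotein lipase to capillaries, at 4 and 1.33. Tek went the other way, at 20.2 and 31.4, and the 10 markers summed to 79.7 and 61.1 RPKM. In Total tumor 1 and 2 this sum was 64.5 and 95.1, with Fabp4 at 40.2 and 33.3. It was 19.1 and 38 in TAM 1 and 2, with Fabp4 at 36.5 and 37.9. In LLC 1 and 2 the sum was 13.4 and 12.7, with Fabp4 at 4.23 and 15.7. Of 9 adipocyte markers, Lep was listed at 0 in all 8 libraries, Adipoq was under 1 RPKM in all 8, and their sum was 3.74 and 5.72 in Fibroblast and 14.3 and 14.6 in TAM, where Lipe held 13.5 and 13.2 of it. The part of endothelial cells in the Fabp4 values was not tested. In bulk samples such as these, fewer cells of a type and less RNA per cell cannot be told apart.

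Plin2, the coat protein of lipid droplets, was raised in TAM over a level that LLC and Fibroblast shared. Plin2 (NM_007408) stood at 417 and 302 RPKM in TAM, 59.2 and 49.7 in LLC, 52.1 and 46.3 in Fibroblast and 78.4 and 103 in Total tumor. TAM was 6.6-fold above LLC in mean RPKM (log2 2.69, SE 0.28, adjusted p = 0.000288) and 7.31-fold above Fibroblast (log2 2.83, SE 0.28, adjusted p = 0.000195). Fibroblast and LLC overlapped (log2 -0.14, adjusted p = 0.716). That difference turned to 0.36 after upper-quartile rescaling, 0.13 after quantile normalization and 0.36 after the length correction.

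Gpnmb, a transmembrane glycoprotein of macrophage lysosomes and melanocytes, had the lowest fold of TAM over LLC but for Fabp4. Gpnmb (NM_053110) stood at 64.3 and 31.5 RPKM in TAM, 10.2 and 10.6 in LLC, 8.6 and 14.7 in Fibroblast and 15.8 and 16.6 in Total tumor. The 2 TAM libraries differed by a factor of 2.04, yet both lay above all other libraries. Gpnmb was higher in TAM by a log2 of 2.01 than in LLC (SE 0.37, adjusted p = 0.00394) and by 1.91 than in Fibroblast (SE 0.37, adjusted p = 0.00523). Without Fibroblast replicate 1 the latter call ended (log2 1.56, adjusted p = 0.0542, where the lowest among its alternatives was 0.00447). Of 6 melanocyte markers, Dct, Tyr, Tyrp1 and Slc45a2 were listed at 0 in all 8 libraries. With Pmel and Mlana, the 6 summed to 1.69 to 3.31 RPKM in Fibroblast and 0.771 to 1.58 in TAM. The sum was 0.862 to 1.21 RPKM in LLC and 0.848 to 1.8 in Total tumor.

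The levels in LLC and Fibroblast were set beside those of macrophage markers in the same libraries. The 12 markers stood at a median of 0.457% of their TAM mean in LLC 1 (range 0.259 to 1.86%) and at 2.91% in LLC 2 (range 1.26 to 4.47%). Trem2 stood at 0.388% and 2.58% and Apoe at 0.547% and 2.36%, within the range of the markers in both LLC libraries. Abcg1, at 0.776% and 4.59%, and Abca1, at 1.3% and 5.96%, were within it in LLC 1 and above it in LLC 2. Pltp stood at 2.35% and 3.2% and Lpl at 4.28% and 6.37%. Well above the markers lay Plin2 (16.5% and 13.8%), Gpnmb (21.4% and 22.1%), Fabp5 (12.1% and 12.7%) and Fabp4 (11.4% and 42.3%).

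The LLC libraries also differed from each other. The macrophage markers were higher in LLC 2 than in LLC 1 by a median factor of 6.36 (range 1.28 to 17.2). Trem2 was higher by a factor of 6.66, Abcg1 by 5.92, Abca1 by 4.59, Apoe by 4.31 and Fabp4 by 3.72. Lpl and Pltp, at factors of 1.49 and 1.36, were also within the range of the markers, and Fabp5, Gpnmb and Plin2, at 1.06, 1.03 and 0.839, were below it. In Fibroblast the markers stood at medians of 1.18% and 1.6% of TAM (highest 2.16% and 2.52%). Trem2 was within their range, at 1.07% and 1.42%, while Apoe (2.26% and 3.42%), Pltp (3.3% and 4.02%) and Abcg1 (5.73% and 7.93%) lay above it in both libraries. Lpl at 59.7% and 62.2% and Abca1 at 41.4% and 65.4% lay far above it. So did Fabp4 at 293% and 97%, Gpnmb at 18% and 30.6% and Plin2 at 14.5% and 12.9%. Fabp5, at 3.2% and 2.39%, was above the range in Fibroblast 1 and within it in Fibroblast 2. The part of macrophage RNA in the LLC and Fibroblast values was not tested.

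**Figure D3:**
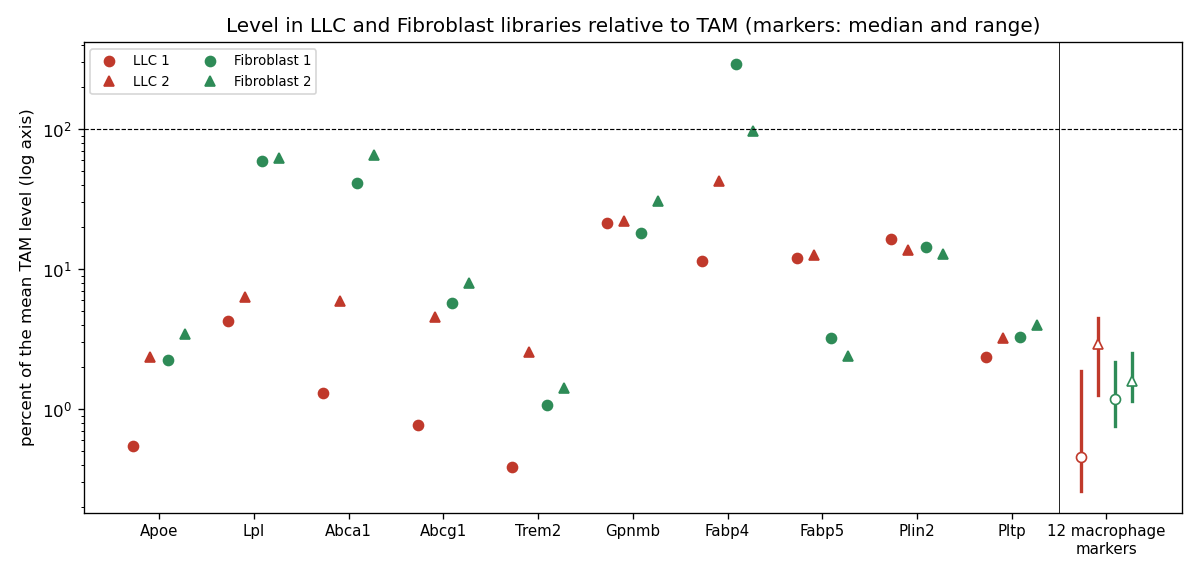
Level of each gene in the 2 LLC and 2 Fibroblast libraries as a percent of its mean RPKM in TAM (log axis), with the median and range of 12 macrophage markers at the right. Trem2 lies within the range of the markers in all 4 libraries (0.388 to 2.58%), and Lpl and Abca1 in Fibroblast lie between 41.4% and 65.4%.

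The 2 TAM libraries also differed from each other by gene. Gpnmb, Apoe, Fabp5 and Trem2 were 2.04, 1.92, 1.88 and 1.83 times as high in TAM 1 as in TAM 2, while the macrophage markers had a median ratio of 1.29 (range 0.577 to 1.88). Lpl, Abcg1 and Fabp4 were near even, at ratios of 1.1, 0.92 and 0.963. Abca1 was higher in TAM 2, at a ratio of 0.642. Mrc1, the mannose receptor of the marker list, was likewise higher in TAM 2 (376 and 652 RPKM). The 10 fibroblast markers, as a percent of their own population's mean, had a median of 0.494 in TAM 1 and 2.57 in TAM 2, and the part of fibroblast RNA in Lpl and Abca1 of TAM was not tested.

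Whole tumors held the genes at levels between those of TAM and LLC, with Lpl, Abca1 and Fabp4 below Fibroblast in mean. Against Total tumor, 9 of the 10 were higher in TAM, and 11.3% of all genes were. The median was 2.53 beside -0.36 over all genes, and the 12 macrophage markers had a median of 2.81. Lpl led with a log2 of 2.89 (SE 0.29, adjusted p = 0.000821), followed by Pltp (2.85), Apoe (2.79) and Abcg1 and Trem2 (2.61 each). Fabp4 was level, at 37.2 ± 0.979 RPKM in TAM and 36.7 ± 4.9 in Total tumor (log2 0.02, SE 0.62, adjusted p = 0.985).

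Some of these calls depended on single libraries or on the processing. For Apoe (adjusted p = 0.0397) the call ended without Total tumor replicate 1 (0.129), TAM replicate 1 (0.184), TAM replicate 2 (0.0851), Fibroblast replicate 1 (0.0848) or Fibroblast replicate 2 (0.0838). It also ended without the filter on low values (0.0773), after quantile normalization (log2 1.91, adjusted p = 0.0949) and with only the groups compared (0.24), and the lowest among its alternatives was 0.0125. For Trem2 (adjusted p = 0.0485) it ended without Total tumor replicate 1 (0.179), TAM replicate 1 (0.216), TAM replicate 2 (0.104), Fibroblast replicate 1 (0.0945) or Fibroblast replicate 2 (0.0944). The Trem2 call also ended with a pseudocount of 0.1 (0.0783), with only the groups compared (0.118), without the filter (0.0871), with summed transcripts (0.0599) and without a variance trend (0.0515), and the lowest among its alternatives was 0.0102. The Gpnmb call (log2 1.42, adjusted p = 0.0223) ended without TAM replicate 1 (0.13) and with only the groups compared (0.0855), and the Abca1 call (log2 2.44, adjusted p = 0.00833) without TAM replicate 2 (0.0615).

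LLC and Fibroblast were also set against Total tumor. All 10 genes had a lower mean in LLC than in Total tumor, and 1 of them, Pltp, was called (log2 -2.26, SE 0.40, adjusted p = 0.0362), where 2.3% of all genes were called lower. The median log2 difference of the 10 was -1.74, beside -0.03 over all genes. Pltp lost its call with a pseudocount of 5 (0.0537), without the filter on low values (0.0853) and with only the groups compared (0.291). That call ended when any 1 library other than Total tumor replicate 1 was left out, with adjusted p from 0.0552 to 0.276. Without Total tumor replicate 1, Apoe and Trem2 passed too (log2 -4.59 and -4.61, adjusted p = 0.0243 and 0.0208). In Fibroblast 2 of the 10 were higher than in Total tumor (12.1% of all genes), Lpl with a log2 of 2.19 (adjusted p = 0.00151) and Abca1 with 1.57 (adjusted p = 0.0368). Another 4 were lower (30% of all genes), namely Trem2 (log2 -3.30, adjusted p = 0.0185), Fabp5 (-2.53, 0.0019), Pltp (-1.87, 0.00916) and Plin2 (-0.86, 0.039). The median log2 difference of the 10 was -0.85, beside -0.51 over all genes. The Plin2 call ended after upper-quartile rescaling (log2 -0.25, adjusted p = 0.445), after quantile normalization (-0.46, 0.108) and with only the groups compared (0.0938). That of Abca1 ended with a pseudocount of 0.1 (0.0828), without the filter on low values (0.0601) and with only the groups compared (0.0583). The calls of Abca1, Trem2, Pltp and Plin2 ended when Fibroblast replicate 1 was left out (adjusted p = 0.0884, 0.108, 0.0721 and 0.124) and when Fibroblast replicate 2 was (0.213, 0.0914, 0.0544 and 0.19). Those of Abca1, Trem2 and Plin2 also ended without Total tumor replicate 2 (0.138, 0.0663 and 0.0783). The Abca1 call ended as well without TAM replicate 1 (0.055) or TAM replicate 2 (0.0552), and the Plin2 call without LLC replicate 1 (0.0689) or LLC replicate 2 (0.069).

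The 2 whole-tumor libraries disagreed by gene, and beside that by transcript length. Trem2, with a transcript of 1088 bases, was 5.62 times as high in Total tumor 2 as in Total tumor 1, Apoe (1408 bases) 4.14 times and Pltp (1809 bases) 2.35 times. Lpl (4115 bases) and Abca1 (10262 bases) were lower in Total tumor 2, at ratios of 0.592 and 0.481. The short Fabp4 (896 bases) went against this order, at 0.828, and Fabp5 (987 bases) stood at 1.6. Macrophage markers summed to 1566 RPKM in Total tumor 1 and 4201 in Total tumor 2, with a median ratio of 1.93. After the length correction the Fibroblast difference of Plin2 from Total tumor shrank to -0.19 (adjusted p = 0.462), and Lpl, Abca1 and Abcg1 passed as lower in LLC (adjusted p = 0.0487, 0.0291 and 0.035).

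**Figure D4:**
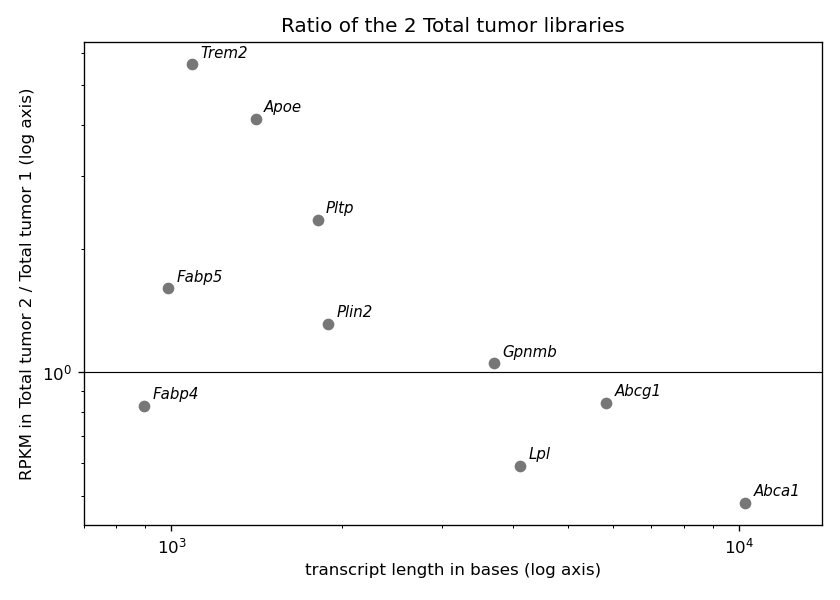
Ratio of RPKM in Total tumor 2 to Total tumor 1 (log axis) against transcript length in bases (log axis) for the 10 genes, with a line at a ratio of 1. Trem2 and Apoe lie highest, at 5.62 and 4.14, and Abca1, the longest transcript, lies lowest at 0.481.

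Genes that work with these 10 were examined in lists drawn up by function, also with earlier results of these data known. Of all genes, 15.4% were called higher and 27.5% lower in TAM than in LLC. Against Fibroblast these shares were 17.4% and 17.3%. The counts of each list stand beside these shares, and no list was tested as a set. The partners and relatives of Trem2 were higher in TAM throughout: all 9 tested of 10 passed against both LLC and Fibroblast. Tyrobp, the adaptor through which Trem2 signals, was at 1607 and 1169 RPKM in TAM, 11.2 and 41.2 in LLC and 17 and 17.7 in Fibroblast (log2 5.92 and 6.22, adjusted p = 0.000595 and 0.00042). The kinase Syk, next in that pathway, was higher in TAM than in LLC by a log2 of 4.74 (adjusted p = 0.000119). The phospholipase Plcg2 was higher by a log2 of 4.08 than in LLC and 4.70 than in Fibroblast (adjusted p = 0.000514 and 0.000247). Syk was also higher in Fibroblast than in LLC (log2 2.87, adjusted p = 0.00069), at 19.5 and 22 RPKM. Inpp5d, a phosphatase that opposes this signal, stood at 80.3 and 87.1 RPKM in TAM, with LLC at 11.4 and 14.2 and Fibroblast at 1.88 and 2.36.

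Genes of the lipid-associated macrophage state outside the 10 lay in both directions. Of 12 tested, 8 were higher in TAM than in LLC and 3 lower (27.5% of all genes were called lower in TAM), and against Fibroblast 9 were higher and 1 lower (17.3% of all genes lower). Lilrb4, an inhibitory receptor, Cd5l, a protein secreted by macrophages, and Clec7a, the receptor Dectin-1, were higher in TAM than in LLC by a log2 of 5.88, 4.11 and 4.05 (adjusted p = 0.000348, 0.00189 and 0.000565). Lgals3, which encodes galectin-3, reached 1320 and 943 RPKM in TAM (log2 3.72 over Fibroblast, adjusted p = 0.000614). Axl, a receptor for apoptotic cells, was lower in TAM, at 21.8 and 35.5 RPKM against 121 and 128 in LLC and 276 and 285 in Fibroblast (log2 -2.12 and -3.29, adjusted p = 0.00111 and 0.000167). The tetraspanin Cd9 was lower in TAM than in LLC, at 63.4 and 52 against 221 and 198 RPKM (log2 -1.85, adjusted p = 0.00114). Spp1, the secreted phosphoprotein osteopontin, was at 604 and 232 RPKM in TAM, 1420 and 1105 in LLC and 126 and 52.2 in Fibroblast. Its lower level in TAM than in LLC (log2 -1.74, adjusted p = 0.0442) lost its call without TAM replicate 2 (0.258), LLC replicate 1 (0.187), LLC replicate 2 (0.113), Fibroblast replicate 2 (0.0697) or Fibroblast replicate 1 (0.064). The Spp1 call also ended without the filter on low values (0.0838), after upper-quartile rescaling (0.0577), with only the groups compared (0.0594) and with summed transcripts (0.0557). Its lowest adjusted p among the alternatives was 0.007.

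Lipoprotein receptors were divided between the populations. Against LLC 4 of 9 were higher in TAM and 2 lower, and against Fibroblast 5 were higher and 2 lower. The scavenger receptors Msr1 and Cd36, which take up modified lipoproteins, were at 162 and 200 and at 89.4 and 66.2 RPKM in TAM. Their log2 differences were 5.71 and 5.42 from LLC (adjusted p = 0.000134 and 0.000137) and 5.40 and 4.15 from Fibroblast (adjusted p = 0.000124 and 0.000229). Lsr, a receptor for triglyceride-rich lipoproteins, was higher in TAM than in LLC by a log2 of 3.75 (adjusted p = 0.00111).

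Of 16 other apolipoproteins and lipid transfer proteins, 6 passed the filter on low values. Apoc2, the activator of lipoprotein lipase encoded beside Apoe, was the 1 called higher in TAM, at 72.2 and 41.2 RPKM against 0 and 1.94 in LLC and 0.533 and 2.63 in Fibroblast (log2 5.02 and 4.56, adjusted p = 0.00237 and 0.00382). Lbp, the lipopolysaccharide-binding relative of Pltp, was a Fibroblast gene, at 579 and 651 RPKM against 5.72 and 14.3 in TAM (log2 -5.92, adjusted p = 0.000195). So was Apod, at 415 and 411 RPKM against 3.08 and 9.5 (log2 -5.98, adjusted p = 0.000106). Clu, the apolipoprotein clusterin, was lower in TAM than in both LLC and Fibroblast (log2 -4.20 and -2.95, adjusted p = 0.000326 and 0.00146).

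Among 13 tested lipases and partners of lipoprotein lipase, 6 were higher in TAM than in LLC and 2 lower, and 5 were higher and 3 lower than in Fibroblast. Pla2g7, a phospholipase that travels with lipoproteins, was at 335 and 285 RPKM in TAM, against 5.81 and 5.64 RPKM for Fibroblast (log2 5.53, adjusted p = 0.000104). In LLC Pla2g7 was at 129 and 145 RPKM, and Fibroblast was lower than LLC by a log2 of -4.36 (adjusted p = 0.000272). The lysosomal phospholipase Pla2g15 was higher in TAM than in LLC by a log2 of 2.60 and than in Fibroblast by 2.07 (adjusted p = 0.000399 and 0.000992). Angptl4, an inhibitor of lipoprotein lipase, was highest in Fibroblast, at 154 and 128 RPKM against 10 and 4.94 in TAM (log2 -4.13, adjusted p = 0.00012). The monoglyceride lipase Mgll was also a Fibroblast gene, at 39.7 and 35 RPKM against 0.127 and 2.49 in TAM (log2 -4.27, adjusted p = 0.000414).

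Genes of sterol handling and ABC transporters related to Abca1 and Abcg1 gave 7 higher and 2 lower of 20 in TAM against LLC, and 11 higher and 5 lower against Fibroblast. The cholesterol hydroxylases Ch25h and Cyp27a1, whose products are ligands of LXR, were higher in TAM than in LLC by a log2 of 3.91 and 3.46 (adjusted p = 0.000422 and 0.000239). Nceh1, a cholesteryl ester hydrolase, was at 28.3 and 27.5 RPKM in TAM, against 1.01 and 1.34 RPKM for Fibroblast (log2 3.74, adjusted p = 0.000116). In LLC Nceh1 was at 14.6 and 18.1 RPKM, and TAM minus LLC did not pass (log2 0.74, adjusted p = 0.068). Abca8a and Abca6, relatives of Abca1, were highest in Fibroblast, and TAM lay below by a log2 of -4.59 and -3.06 (adjusted p = 0.000116 and 0.00168).

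Of the transcription factors of lipid and lysosome genes, 7 of 12 were higher in TAM than in LLC and 3 lower, and against Fibroblast 5 were higher and 0 lower. Nr1h3, which encodes LXR alpha, stood at 28.9 and 25.5 RPKM in TAM, 9.71 and 8.35 in Fibroblast and 3.49 and 2.73 in LLC (log2 2.78 over LLC, adjusted p = 0.000624). Nr1h2, which encodes LXR beta and was named after its values were seen, did not pass in either comparison (log2 0.47 and 0.85, adjusted p = 0.323 and 0.108). Pparg, also named after its values were seen, was at 11.8 and 5.67 RPKM in TAM and under 1 RPKM in both LLC libraries (log2 2.41, adjusted p = 0.0027). Tfec, a relative of the lysosomal regulator Tfeb found in macrophages, was at 34.6 and 42.4 RPKM in TAM and under 1 RPKM in all LLC and Fibroblast libraries (log2 4.83 and 4.89, adjusted p = 0.000137 and 0.000118). The sterol regulator Srebf2 was lower in TAM than in LLC (log2 -1.46, adjusted p = 0.00348).

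The last lists held relatives of the fatty acid-binding proteins and of Plin2. Of 13 other intracellular lipid-binding proteins 6 were tested, and 1 was higher and 2 were lower in TAM in each of the comparisons with LLC and Fibroblast. Of all genes, 15.4% were called higher and 27.5% lower against LLC, and 17.4% and 17.3% against Fibroblast. Crabp1, which binds retinoic acid, was at 9.81 and 7.56 RPKM in TAM, below LLC at 263 and 107 (log2 -4.13, adjusted p = 0.00187). Fabp1, Fabp2, Fabp6, Fabp9 and Fabp12 were listed at 0 in all 8 libraries. Of the lipid droplet proteins beside Plin2, 7 of 13 were tested, 2 were higher and 1 lower in TAM than in LLC, and 1 was higher than in Fibroblast. The gene called against Fibroblast was Hilpda, a droplet protein induced by hypoxia, at 110 and 70.7 RPKM in TAM against 20.3 and 10.1 in Fibroblast (log2 2.54, adjusted p = 0.00122). Plin3 was even across the sorted populations, between 39.3 and 53.9 RPKM, and did not pass. Genes of fatty acid uptake and activation gave 0 higher and 2 lower of 9 against LLC, where Acsl3 was lower (log2 -2.43, adjusted p = 0.0004).

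The genes most like each of the 10 over the 8 libraries were named by Pearson's r of log2(RPKM + 1), as a description over 4 populations that share libraries and depth. For Trem2 these were C1qa, a complement gene and macrophage marker, and AF251705 (r = 0.999 each). Apoe was most like Cxcl16 (0.996) and Cbr2 (0.995), Abcg1 like Galnt6 (0.996) and Bst1 (0.993), and Pltp like Sh3tc1 (0.998) and Slc13a3 (0.997). Lpl was most like Il16 (0.995) and the heparanase gene Hpse (0.992), and Abca1 like Gda (0.989) and Celf2 (0.988). Plin2 was most like Mpp1 (0.997) and Mknk1 (0.995), Fabp5 like Plcl2 and Grb2 (0.989 each), and Gpnmb like Ube2q2 (0.988) and Rtp4 (0.974). Fabp4 had no close match, with Nos2 (0.891) and Plac8 (0.890) highest. Among the 10 themselves, r was highest between Apoe and Trem2 (0.98) and lowest between Fabp4 and Fabp5 (-0.11).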

How the data were processed

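RNA of each library (200 ng, oligo-dT primed, 50 bp reads) was sequenced on a HiSeq1500, per the labels' protocols. The deposited table holds RPKM values that the authors computed for 31645 RefSeq transcripts, and STAR, HOMER and build mm9 are named in the submitters' processing notes. No version, filter, strand setting or read total was stated by the sources used here. The 3 transcripts without a name were dropped, which left 23952 symbols.

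The members and gene lists were chosen with earlier results of these data known. One limma 3.58.1 fit in R 4.3.3 covered all 8 libraries on log2(RPKM + 1), with a mean-variance trend, for 6 comparisons of 13311 genes (4 residual degrees of freedom, prior 3.62). The fit was also run on simulated libraries with independent noise. They lacked the length trend and depth differences of these libraries, so that run cannot show how those affect the calls. RPKM values are not counts, so no count test was run. Depth was estimated from values up to 6 reads, as the depth that put most within 0.05 of a whole read, with GENCODE lengths matched by accession for 97.4% of transcripts. It was chosen to fit, and 57.6 to 61.3% of values were whole.

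From each list, up to 3 called genes in each direction with at least 10 RPKM in the higher group could be named, with 2 likest genes per member. Alternatives were other pseudocounts (0.1 and 5), filters (none, 5 RPKM), scalings, variance models, a replicate block, summed transcripts and leaving out each library. The length correction was added after seeing the data.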

Additional observations from a re-analysis of the deposited data

How the results depend on the processing

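Each of 60 gene and comparison pairs of the 10 genes was recomputed under 19 alternatives, 1140 values in all, of which 1049 kept their direction and side of the threshold, 63 lost a call, 15 gained one and 13 changed sign. Of 94 such pairs of other named genes, 22 lost a call under at least 1 alternative and 0 changed sign. Leaving out 1 library assumes that the library left in its group varies like the other groups.

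The differences that changed sign had not passed the test with all libraries. Fibroblast minus LLC turned for Trem2 with a pseudocount of 5 (log2 -0.03) and between -0.88 and 1.08 when libraries were left out, for Gpnmb between -0.25 and 0.46, and for Plin2 to 0.36 after upper-quartile rescaling, 0.13 after quantile normalization and 0.36 after the length correction. Fabp4 ran from -1.53 to 0.04 for TAM minus Fibroblast, from -0.11 to 0.16 for TAM minus Total tumor and from -0.02 to 1.55 for Fibroblast minus Total tumor when libraries were left out. Gpnmb for Fibroblast minus Total tumor turned to 0.08 after upper-quartile rescaling and 0.03 after quantile normalization. The cause was not tested.

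Counts of called genes moved most for LLC minus Total tumor. There, 313 of all genes and 1 of the 10 were called by limma, against 180 and 0 with a pseudocount of 5, 12 and 0 without a filter, and 0 and 0 with only these groups in the fit. Upper-quartile rescaling gave 202 of all genes, and the length correction 4 of the 10. Leaving out 1 library gave 0 to 2420 of all genes and 0 to 3 of the 10. With only the compared groups, TAM minus Total tumor gave 1905 in place of 4690 genes and Fibroblast minus Total tumor 3220 in place of 5601. Leaving out 1 library gave 3418 (without LLC replicate 1) to 7354 genes for TAM minus LLC (5707 with all), 2306 (without LLC replicate 1) to 7146 for Fibroblast minus LLC (5142), 2389 (without TAM replicate 1) to 5990 for TAM minus Total tumor and 2366 (without Fibroblast replicate 2) to 7193 for Fibroblast minus Total tumor. Of the 10 genes, 2 (without either Fibroblast library) to 7 were called for Fibroblast minus Total tumor (6 with all).

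Same-numbered libraries did not deviate together (correlation of deviations -0.36 to 0.27, median -0.01), so no pairing was taken from the numbers, although depth differed by number in every group and what the numbers mark is not known. With a replicate block, Fabp4 for TAM minus LLC (log2 2.03, adjusted p = 0.0548) and Plin2 for Fibroblast minus Total tumor (log2 -0.86, adjusted p = 0.0653) lost their calls.

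Depth limits the low levels: at the estimated depths, Trem2 rests on about 12 reads in LLC 1 and Abcg1 on about 18.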
